A study of Rattus norvegicus with 12 samples.

Results

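The miR-10, miR-99, miR-100 and miR-125 genes of rat liver were described here across caffeine, dextromethorphan, their combination and vehicle. Members were all rows of the deposited expression table whose gene name carries the number of miR-10, miR-99, miR-100 or miR-125, with any letter or copy number after it. This rule used no measured value. It found 7 of the 444 listed features: Mir10a, Mir10b, Mir99a, Mir99b, Mir100, Mir125a and Mir125b1. All 7 were above 0 in all 12 libraries and were among the 293 features tested.

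Small RNA was sequenced from liver of male Sprague-Dawley rats (Jcl:SD), an outbred stock, dosed by mouth on 5 days from 7 weeks of age, with 5 rats per group. The CAF group was given caffeine, an adenosine receptor antagonist, at 120 mg/kg. The DEX group was given dextromethorphan hydrobromide monohydrate, a cough suppressant and NMDA receptor antagonist, at 100 mg/kg. The CAF+DEX group was given both drugs at those doses, and the Control group was given sterile distilled water, in which all the drugs were dissolved. Liver was taken 1 h after the last dose, and 3 libraries per group were analysed. The source rat of each library is not given in the labels, so p-values measure only the spread between these samples, which may be technical. Libraries are called by the number in their column header (CAF 1, 2 and 5, DEX 1, 2 and 4, CAF+DEX 1, 2 and 5, Control 1, 3 and 4).

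A microRNA gene is transcribed as a hairpin precursor, from which a short mature strand is cut. The mature strand pairs with messenger RNAs mainly through its seed, bases 2 to 8, and lowers their stability or translation. The miR-10 genes lie inside Hox gene clusters, which set position along the body axis of the embryo. The miR-99 and miR-100 genes share one seed, are often near a let-7 and a miR-125 gene, and are known as repressors of the mTOR growth pathway. The miR-125 genes are vertebrate relatives of worm lin-4, the first microRNA described, and act in blood cell development and inflammation.

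The sequences show which of these genes are alike and where they could be confused by a read counter. RefSeq (GRCr8) held a hairpin for all 7 members. The mature 5p strands or, where RefSeq gives none in the same frame, the aligned stretch of the hairpin are printed 5′ to 3′ with bases 2 to 8 in capitals.
rno-miR-10a-5p: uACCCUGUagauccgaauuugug
Mir10b hairpin stretch: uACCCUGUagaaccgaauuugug
rno-miR-99b-5p: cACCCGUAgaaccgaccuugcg
rno-miR-100-5p: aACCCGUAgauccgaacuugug
Mir99a hairpin stretch: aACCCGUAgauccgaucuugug
rno-miR-125a-5p: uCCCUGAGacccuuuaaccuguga
rno-miR-125b-5p: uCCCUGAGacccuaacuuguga
rno-miR-351-5p: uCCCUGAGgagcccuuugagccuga

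Counted from 1 at the 5′ end of the first-named sequence, miR-10a-5p and the Mir10b stretch were identical at 22 of 23 bases and differed by U12A. The annotated rno-miR-10b-5p begins 2 bases later in the hairpin (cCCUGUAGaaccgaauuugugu), so that its bases 2 to 8 are not those of miR-10a-5p. The miR-100-5p and Mir99a sequences were identical at 21 of 22 bases and differed by A16U, while miR-99b-5p differed from miR-100-5p by A1C, U11A, A16C and U21C. RefSeq lists miR-125b-5p under Mir125b2, a second copy that is not analysed here, and the same strand was found whole in the hairpin of Mir125b1. miR-125a-5p and miR-125b-5p shared their first 13 bases. Among 724 mature rat sequences searched, the miR-125 seed occurred in 1 other listed gene, Mir351 on the X chromosome, which shared its first 8 bases with miR-125b-5p.

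The positions below are those of the deposited table on rn7, and all 7 genes lie on the plus strand. Mir99b (ENSRNOG00000035654, chr1:58677011-58677090) and Mir125a (ENSRNOG00000035572, chr1:58677626-58677710) were separated by 535 bases. Mir100 (ENSRNOG00000035502, chr8:41901225-41901304) and Mir125b1 (ENSRNOG00000035550, chr8:41952966-41953052) were separated by 51661 bases. Mir99a (ENSRNOG00000035524, chr11:16200443-16200523) lay 634 bases before Mirlet7c1, a let-7 gene. Mir10b (ENSRNOG00000035554, chr3:59628438-59628546) and Mir10a (ENSRNOG00000035535, chr10:81283171-81283280) had no other member on their chromosomes.

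RefSeq, on another build and so used here only for names and neighbours, placed Mir99b and Mir125a within Spaca6, a gene named for sperm acrosome function. It placed Mir10b within Hoxd4 and Mir10a between Hoxb5 and Hoxb4. Mir100 and Mir125b1 lay within the long noncoding host genes Mir100hgl and Lnc215. The let-7 genes that complete the 2 clusters with Mir125a and Mir125b1, Mirlet7e and Mirlet7a-2, are not analysed here. On the opposite strand, Mir3596c between Mir99b and Mir125a and Mir3596a between Mir100 and Mir125b1 had 0 reads over the 12 libraries.

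The values were FPKM, in which reads are divided by feature length and by the reads on all listed features. Levels of different genes are therefore per length of hairpin, and their order by reads can differ. Read numbers were recovered from the FPKM, with library totals of 2863572 to 3107874 in CAF, 2941725 to 3363795 in DEX, 3145320 to 3360465 in CAF+DEX and 3103016 to 3418568 in Control. The hepatocyte markers held 25.4 to 28.4% of the reads of a library, with 6 of 7 of them listed and none at 0. Leukocyte markers held 1.75 to 2.15% in CAF, 2.59 to 2.97% in DEX, 1.96 to 2.40% in CAF+DEX and 2.63 to 2.99% in Control. Their part in the levels of the 7 genes was not tested. Fewer cells of a type and less RNA per cell cannot be told apart in such tissue. Over the 12 libraries the 7 genes together took 2.448 to 2.844% of reads, of which Mir125b1 alone took 60.6 to 64.0%.

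The order of the levels in FPKM was nearly fixed. Mir125b1 was followed by Mir125a, Mir10a, Mir99a, Mir99b, Mir100 and Mir10b in 11 of 12 libraries, and in CAF+DEX library 1 Mir10b stood above Mir100. By reads, not divided by hairpin length, Mir10b also stood above Mir100 in CAF library 2, with 146 against 125.5 reads. The FPKM ranges of neighbours in this order did not overlap, except those of Mir100 and Mir10b. By mean FPKM, Mir125b1 ranked 16, Mir125a 35, Mir10a 57, Mir99a 68, Mir99b 76, Mir100 132 and Mir10b 145 among 444 features.

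**Figure D1:**
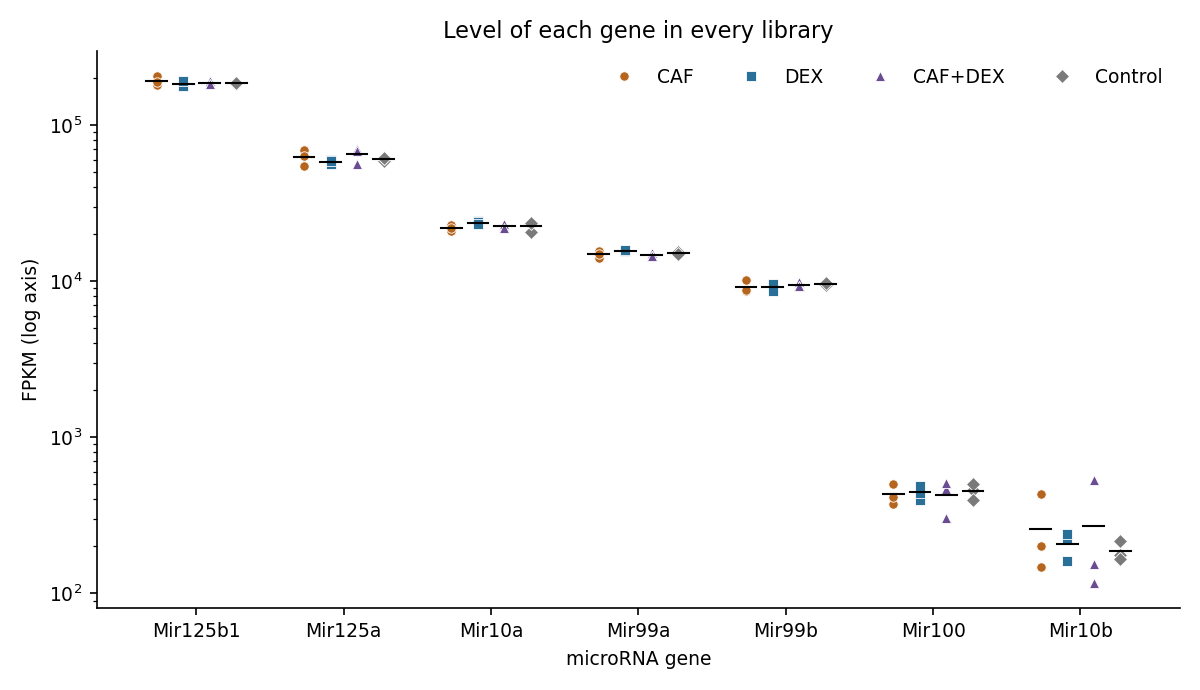
FPKM of each of the 7 genes in each library on a log10 axis, by group (CAF, DEX, CAF+DEX, Control), with a short line at the group mean. The genes keep separate levels from Mir125b1, averaging 186333 FPKM, down to Mir100 and Mir10b, and only Mir10b spreads widely between libraries of a group.

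Mir125b1 was the most abundant member and among the steadiest, with a coefficient of variation of 3.98% over the 12 libraries. It was at 179990, 205591 and 189702 FPKM in CAF, at 180275, 178274 and 189887 in DEX, at 191896, 181934 and 182928 in CAF+DEX, and at 183868, 186005 and 185649 in Control. CAF library 2 was the highest, and each drug group overlapped Control. Its reads included shares of reads in 11 of 12 libraries, as when a read fits more than 1 gene, so the part that comes from the second copy of the same mature strand is uncertain.

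Mir125a was at 54471, 69028 and 63418 FPKM in CAF, at 56280, 59568 and 58836 in DEX, at 69878, 67899 and 56572 in CAF+DEX, and at 58332, 61033 and 61449 in Control. The CAF and CAF+DEX libraries spread on both sides of Control, with SDs of 7342 FPKM in CAF and 7180 in CAF+DEX, against 1693 in Control (n = 3 each). Its neighbour Mir99b was at 8652, 10184 and 8811 FPKM in CAF, at 9174, 9573 and 8625 in DEX, at 9880, 9308 and 9337 in CAF+DEX, and at 9404, 9503 and 9793 in Control. Mir99b overlapped Control in each drug group, and all its reads were whole.

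Mir10a, the Hoxb member, was at 21024, 22877 and 21888 FPKM in CAF, at 24103, 23774 and 23214 in DEX, at 22830, 23093 and 21742 in CAF+DEX, and at 23306, 20705 and 23637 in Control. Control library 3 was the lowest of all, and every drug group overlapped Control. Mir99a was at 14066, 15609 and 14881 FPKM in CAF, at 15501, 15569 and 15762 in DEX, at 15178, 14514 and 14556 in CAF+DEX, and at 15019, 15377 and 14866 in Control. It varied least, with a coefficient of variation of 3.45%. Its 3 DEX libraries all stood above the 3 Control libraries, by a narrow margin.

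Mir100, the near-identical relative of Mir99a, was scarce, with 82 to 132.5 reads per library. It was at 373, 505 and 416 FPKM in CAF, at 397, 440 and 491 in DEX, at 465, 509 and 305 in CAF+DEX, and at 460, 395 and 502 in Control. CAF+DEX library 5 was the lowest, and the groups overlapped. Its coefficient of variation was 14.3%, where counting error alone would give 9.49%. That counting error takes each read as a separate molecule, which is not known here. Reads of Mir100 included shares of reads in 5 libraries, and those of Mir99a in 6. Whether reads of Mir99a were counted to Mir100 was not tested.

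Mir10b, the Hoxd member, was the rarest and the most uneven. It was at 147, 431 and 202 FPKM in CAF (46, 146 and 66 reads), at 221, 241 and 161 in DEX (71, 85 and 59 reads), at 534, 155 and 117 in CAF+DEX (183, 55 and 43 reads), and at 177, 166 and 216 in Control (62, 62 and 73 reads). CAF library 2 and CAF+DEX library 1 stood above all other libraries, while their own groups also held the lowest ones. The exact binomial 95% interval was 50.06 to 67.25 reads per 1000000 in CAF+DEX library 1 and 39.67 to 55.25 in CAF library 2, against 9.26 to 17.24 in CAF+DEX library 5. These intervals cover counting error only and likewise take each read as a separate molecule.

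The highest Mir10b level was 4.55 times the lowest. Its coefficient of variation was 54.0%, where counting alone would give 11.2% if each read were a separate molecule. Of 33 features averaging 40 to 160 reads, Mir10b had the second largest SD within groups on the log2 scale, 0.716, after Mir184 with 1.301. The median of the 33 was 0.237, and Mir100 had 0.252. Mir10a, identical to the Mir10b stretch but for 1 base, did not spread in the same libraries: its lowest and highest levels differed by 1.16 times. Mir10a averaged 7900 reads per library and Mir10b 79.2, so a change of the size of Mir10b would hardly show in Mir10a. Whether reads of Mir10a were counted to Mir10b was not tested.

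**Figure D2:**
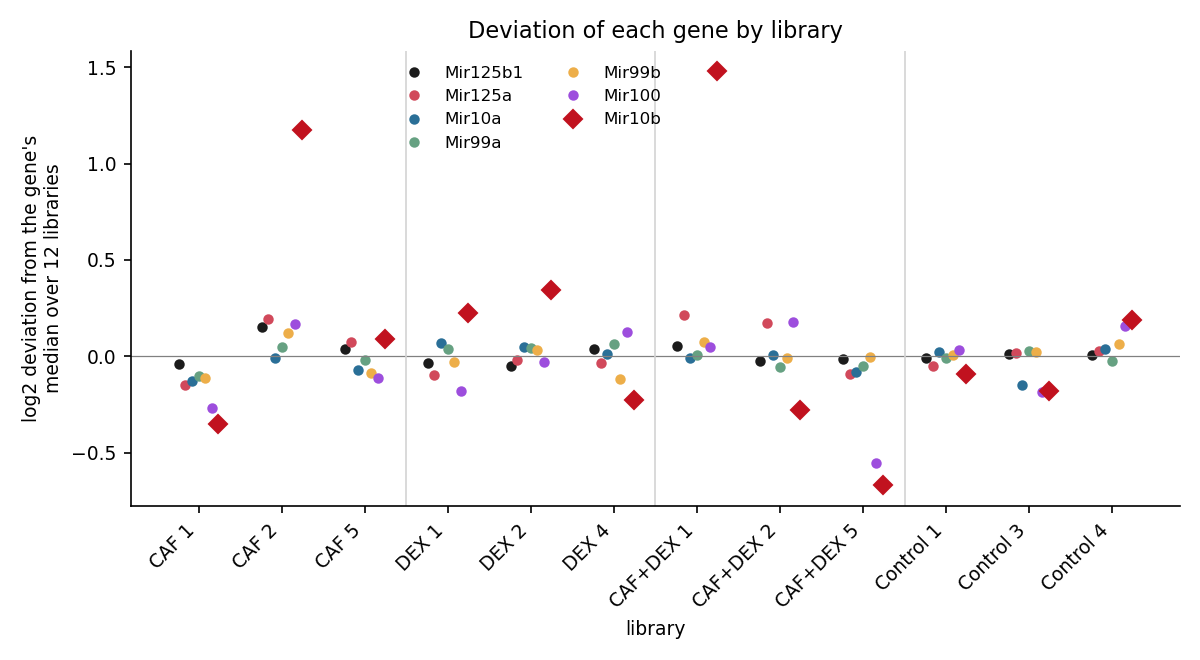
Difference of each gene from its median over the 12 libraries, in log2 units, for each library, with Mir10b as large diamonds and grey lines between the groups. Mir10b in CAF library 2 and CAF+DEX library 1 lies far above 0, where the other genes stay close to it; Mir100 falls furthest below 0 in CAF+DEX library 5, beside Mir10b.

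CAF library 2 and CAF+DEX library 1 were also the highest libraries for Mir99b, Mir125a and Mir125b1. This was looked at after the Mir10b values had been seen. Over 154 features averaging at least 40 reads these libraries were the highest pair for 6, namely those 4 genes, Mir351 and Mir542, and 5 of the 66 possible pairs of libraries were highest for more features. Mir10a, Mir99a and Mir100 did not have both libraries on top.

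Markers of stellate and smooth muscle cells were read in the same libraries. Mir143, the most abundant of them, was at 214685 FPKM in CAF library 2 and 244631 in CAF+DEX library 1, and between 156324 and 225758 in the others. The 4 of 6 such markers listed, Mir143, Mir145, Mir199a2 and Mir214, together held 2.11 to 2.91% of reads in CAF, 2.63 to 2.73% in DEX, 2.30 to 3.16% in CAF+DEX and 2.40 to 2.71% in Control. None of these 4 was at 0 in any library. CAF+DEX library 1 had the highest share, 3.16%, and CAF library 2 held 2.79%, below the 2.91% of CAF library 5 and the 2.86% of CAF+DEX library 2. Their part in the spread of Mir10b was not tested.

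Caffeine alone was compared with vehicle to ask whether these genes respond to that drug. None of the 7 was called at a limma adjusted p under 0.05, where 0.683% of the 293 tested features were. None had an unadjusted p under 0.05, where 38 features did, and limma-voom on recovered reads also called 0 members. Of the 7, 3 were higher and 4 lower, and under quantile normalization 6 were higher and 1 lower. Their median log2 fold change was -0.02, against 0.00 over all features tested. Groups failed to overlap for 0 of 7 members, against 14.7% of features.

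In CAF against Control the abundant members were bounded closely. Mir125b1 had a log2 fold change of 0.05 (SE 0.06, 95% interval -0.07 to 0.17, limma adjusted p = 0.868). Mir125a had 0.04 (SE 0.09, interval -0.16 to 0.24, limma adjusted p = 0.934), with -0.04 without CAF library 2 and 0.13 without CAF library 1. Mir99b had -0.06 (interval -0.22 to 0.10), Mir10a -0.04 (interval -0.17 to 0.10) and Mir99a -0.02 (interval -0.14 to 0.10). The direction of Mir99b and of Mir99a turned under quantile normalization, to 0.11 for Mir99b and 0.04 for Mir99a.

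The rare members were bounded loosely. In CAF against Control Mir10b had a log2 fold change of 0.33 (SE 0.49, interval -0.74 to 1.40, limma adjusted p = 0.903), and without CAF library 2 it was -0.10. Mir100 had -0.07 (SE 0.20, interval -0.50 to 0.36, limma adjusted p = 0.95), and 0.06 under quantile normalization.

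**Figure D3:**
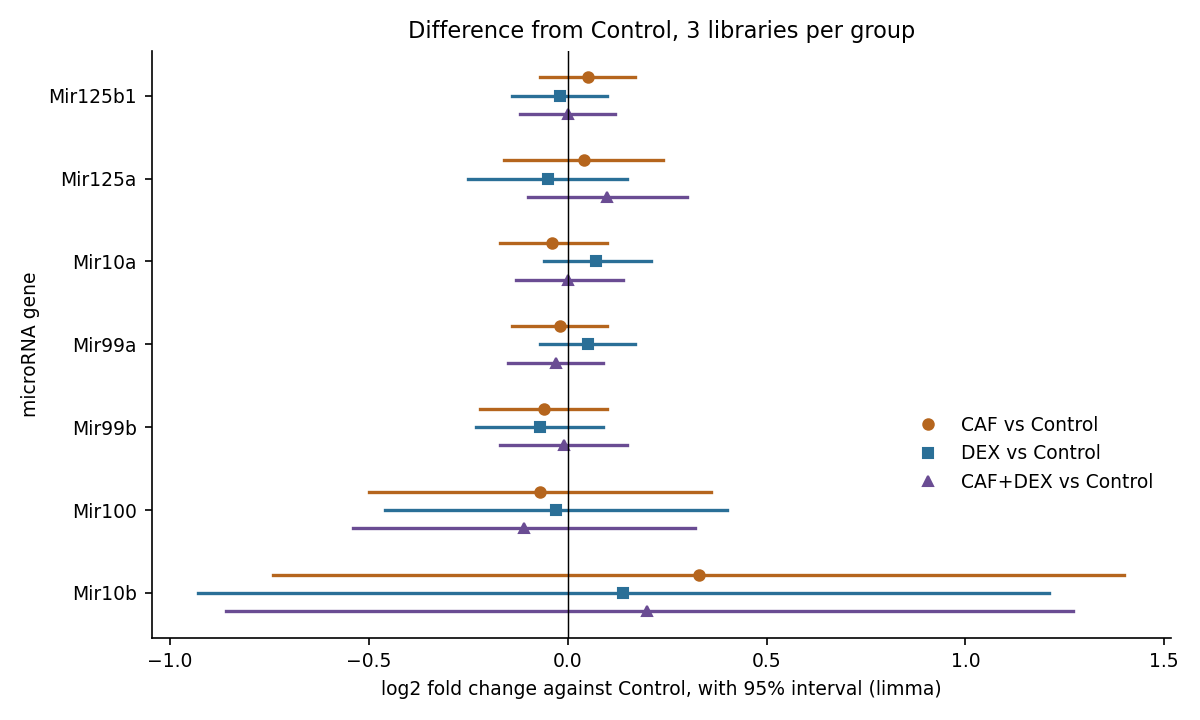
Log2 fold change of each gene in CAF, DEX and CAF+DEX against Control, with 95% intervals from limma. All 21 intervals include 0; those of Mir10b and Mir100 are the widest, and Mir10b in CAF reaches from -0.74 to 1.40.

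Dextromethorphan alone called 0 of the 7 members, and 0% of the 293 features. Unadjusted p-values under 0.05 were found for 0 members and 13 features, and limma-voom called 0 members. The median log2 fold change of the members was -0.02, against 0.00 over all features, with 3 higher and 4 lower. Mir99a, whose groups did not overlap (1 of 7 members, against 10.9% of features), averaged 15610 ± 135 FPKM in DEX and 15087 ± 262 in Control (SD, n = 3 each). Its log2 fold change was 0.05 (interval -0.07 to 0.17, limma adjusted p = 0.965).

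Mir10a had the smallest p of the members in DEX against Control, with a log2 fold change of 0.07 (SE 0.06, interval -0.06 to 0.21, limma adjusted p = 0.91). The neighbours Mir99b and Mir125a had -0.07 (interval -0.23 to 0.09) and -0.05 (interval -0.25 to 0.15). Mir125b1 had -0.02 (interval -0.14 to 0.10). Mir10b had 0.14 (interval -0.93 to 1.21), with 0.03 without DEX library 2 and 0.31 without DEX library 4. Mir100 had -0.03 (interval -0.46 to 0.40). Both turned under quantile normalization, Mir10b to -0.02 and Mir100 to 0.08.

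The combination also called 0 of the 7 members against Control, and 0% of the 293 features. Unadjusted p-values under 0.05 were found for 0 members and 30 features, and limma-voom called 0 members. Of the 7, 4 were higher and 3 lower, and under quantile normalization and median-of-ratios scaling 5 were higher and 2 lower. Their median log2 fold change was 0.00, against -0.01 over all features. Groups failed to overlap for 0 of 7 members, against 14.7% of features.

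Mir125a had the smallest p of the members in CAF+DEX against Control, with a log2 fold change of 0.10 (SE 0.09, interval -0.10 to 0.30, limma adjusted p = 0.869). It was 0.04 without CAF+DEX library 1, 0.06 without CAF+DEX library 2 and 0.19 without CAF+DEX library 5. Mir10b had 0.20 (SE 0.49, interval -0.86 to 1.27, limma adjusted p = 0.986), and -0.45 without CAF+DEX library 1. Mir125b1 had 0.00 (interval -0.12 to 0.12), Mir10a 0.00 (interval -0.13 to 0.14) and Mir99b -0.01 (interval -0.17 to 0.15). Mir99a had -0.03 (interval -0.15 to 0.09) and Mir100 -0.11 (interval -0.54 to 0.32). Under quantile normalization Mir99b turned to 0.10, Mir10a to -0.03 and Mir99a to 0.003.

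The combination was next set against each single drug, and the departure from additive effects was tested as an interaction. For CAF+DEX against CAF, for CAF+DEX against DEX and for the interaction, 0 of 7 members and 0% of features were called. The smallest member p among these was that of Mir125a in CAF+DEX against DEX, 0.13 unadjusted and 0.646 after limma adjustment. Interaction terms of the members ran from -0.27 for Mir10b (interval -1.78 to 1.24) to 0.12 for Mir99b (interval -0.11 to 0.34).

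Pooling the groups with and without each drug gave 0 called members as well. The caffeine main effect called 0.683% of features, the dextromethorphan main effect 0% and the F test over the 4 groups 0.341%. The smallest adjusted p of a member in any of the 9 tests was 0.561, for Mir125a in the caffeine main effect (limma, unadjusted p = 0.167). Features with an unadjusted p under 0.05 numbered 42 for the caffeine main effect, 22 for the dextromethorphan main effect and 33 for the F test, none of them a member.

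The linked pair Mir99b and Mir125a was compared as a ratio, which does not depend on the scaling of a library. Mir125a stood 6.06 to 7.29 times above Mir99b per length, with a median of 6.36. The log2 ratio of Mir99b to Mir125a averaged -2.75 ± 0.10 in CAF, -2.67 ± 0.08 in DEX, -2.76 ± 0.14 in CAF+DEX and -2.66 ± 0.03 in Control (SD, n = 3 each). An exact permutation test of the F statistic over the 4 groups gave p = 0.466 (adjusted over 2 ratios, 0.932). Leaving out single libraries moved that exact p between 0.0875, without CAF+DEX library 5, and 0.626.

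Against Control, the exact two-sided permutation p of this ratio was 0.2 for CAF, 0.9 for DEX and 0.4 for CAF+DEX, where 3 against 3 libraries cannot go below 0.1, and adjusted values were 1. The differences were -0.10, -0.02 and -0.11 on the log2 scale. The ratios ran from -2.85 to -2.65 in CAF, from -2.87 to -2.60 in CAF+DEX and from -2.68 to -2.63 in Control. CAF libraries 2 and 5 and CAF+DEX libraries 1 and 2 lay below every Control ratio. CAF library 1 lay among the Control ratios and CAF+DEX library 5 above them.

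The ratio of the Hox-linked pair varied more. Mir10a stood 42.8 to 185 times above Mir10b per length, with a median of 117. The log2 ratio of Mir10a to Mir10b was 7.16, 5.73 and 6.76 in CAF, 6.77, 6.62 and 7.17 in DEX, 5.42, 7.22 and 7.53 in CAF+DEX, and 7.04, 6.96 and 6.77 in Control. CAF library 2 and CAF+DEX library 1 were the lowest. The exact permutation test over the 4 groups gave p = 0.963, and p = 0.196 without those 2 libraries. The pairwise exact p-values were 0.6 for CAF, 0.7 for DEX and 1 for CAF+DEX against Control, all 1 after adjustment.

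The other linked pair was far more unequal than the first. Mir125b1 stood 357 to 600 times above Mir100 per length, with a median of 410. Between relatives with one seed, Mir125b1 stood 2.68 to 3.30 times above Mir125a, Mir99a 1.52 to 1.83 times above Mir99b and Mir99a 28.5 to 47.7 times above Mir100. None of these ranges reached 1.

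**Figure D4:**
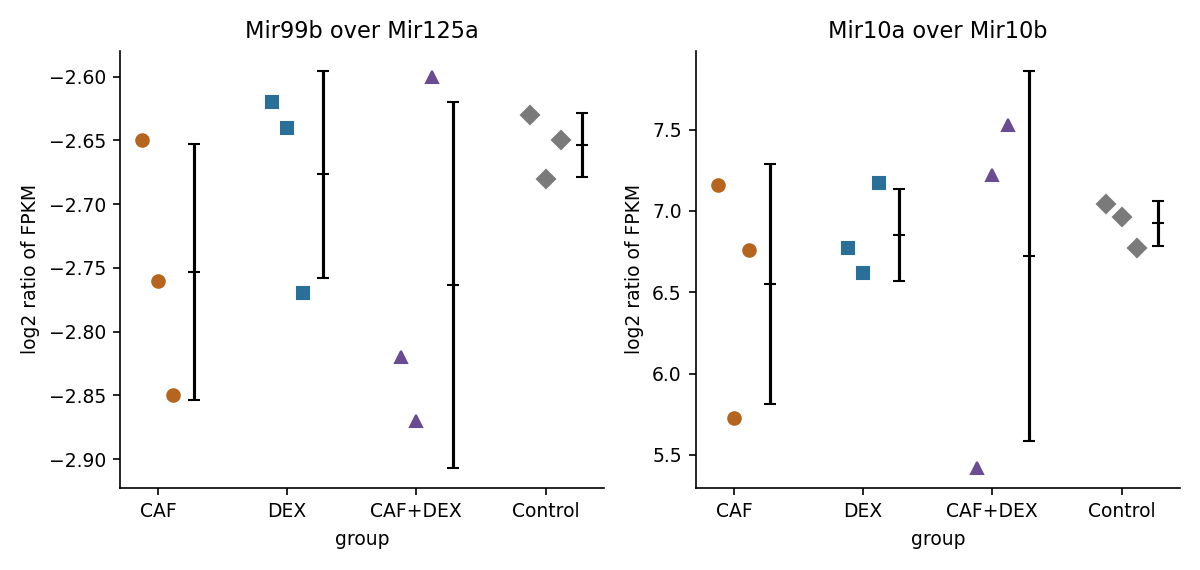
Log2 ratio of Mir99b to Mir125a (left) and of Mir10a to Mir10b (right) in each library, by group, with the group mean ± SD (n = 3). The left ratios stay between -2.87 and -2.60; the right ones reach down to 5.42 in CAF+DEX library 1 and 5.73 in CAF library 2.

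Members were also compared over the 12 libraries, to ask whether neighbours on a chromosome moved together. Of 21 pairs, 20 had a positive Pearson r of log2 levels, with a median of 0.43 and a range of -0.03 to 0.69. Permutation tests with 100000 resamples gave 6 pairs an unadjusted p under 0.05, and 0 pairs passed after Benjamini-Hochberg adjustment over the 21 (smallest 0.138 for Pearson and 0.178 for Spearman).

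Mir99b and Mir125a, the neighbours on chromosome 1, had r = 0.59 and rho = 0.59 (n = 12, permutation p = 0.0428 and 0.0455, adjusted p = 0.15 for r). Within groups r was 0.62, and it was 0.48 without CAF library 2 and DEX library 4, those farthest from the Mir99b median. Without CAF library 2 and CAF+DEX library 1 it was 0.27, and within groups 0.16. Mir100 and Mir125b1, the neighbours on chromosome 8, had r = 0.42 and rho = 0.41 (n = 12, permutation p = 0.172 and 0.185), 0.52 within groups and 0.38 without CAF library 1 and CAF+DEX library 5. The part of the Mir125b1 reads that comes from Mir125b2 is uncertain, so this r may not describe chromosome 8 alone.

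The largest r was between genes on different chromosomes. Mir125a and Mir10b had r = 0.69 and rho = 0.54 (n = 12, permutation p = 0.0126 and 0.0745, adjusted p = 0.138 for r), and r was 0.17 without CAF library 2 and CAF+DEX library 1, the highest libraries of both genes. As deviations from group means it was 0.75, and 0.61 without those libraries. Mir10b and Mir125b1 had r = 0.63 and rho = 0.35 (permutation p = 0.0376 and 0.266), and r became -0.10 without them. Mir125a and Mir125b1 had r = 0.66 and rho = 0.65 (permutation p = 0.0151 and 0.0254), and r became 0.33. Mir125a and Mir100 had r = 0.63 and the largest rho of the 21 pairs, 0.69 (permutation p = 0.0271 and 0.017), with 0.82 within groups and 0.60 without the same libraries. Mir99b and Mir10b had r = 0.66 and rho = 0.66 (permutation p = 0.0197 and 0.022), with 0.79 within groups and 0.31 without them. Within groups and without those libraries, the r of Mir99b and Mir10b was 0.78. None of these passed after adjustment. Mir10a and Mir10b had r = 0.34 and rho = 0.45 (permutation p = 0.279 and 0.149). As deviations from group means, Mir125b1 and Mir99a had the largest r of the 21 pairs, 0.91, against 0.40 over all libraries. Mir125b2, the second copy with the same mature strand as Mir125b1, lies on chromosome 11, as Mir99a does. Its part in this r was not tested.

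**Figure D5:**
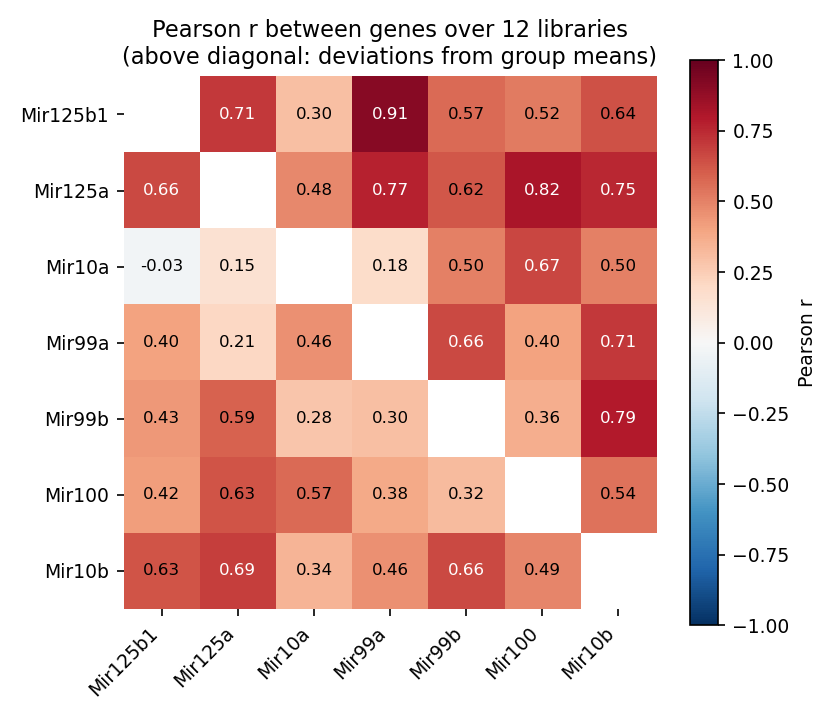
Pearson r of log2 levels for the 21 pairs of genes over the 12 libraries (below the diagonal) and of deviations from group means (above it), as colour and number in each cell. Over the libraries the neighbours Mir99b and Mir125a have 0.59, less than the 0.69 of Mir125a and Mir10b, and no pair passed after adjustment.

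The features outside the 7 genes with the most similar pattern over the 12 libraries were taken, 3 for each gene, from 139 abundant features by Pearson r, as a description. Mir125a was most like Mir143 (r = 0.80), Mir351 (0.80) and Mir24-2 (0.74). Mir351, which has the miR-125 seed, was also nearest to Mir125b1 (0.72) and to Mir10b (0.74). Its highest libraries were CAF library 2, at 3243 FPKM, and CAF+DEX library 1, at 3206. Next came Scarna3 (0.63), a small nuclear RNA of Cajal bodies, and the stellate marker Mir199a2 (0.57) for Mir125b1, and Scarna3 (0.69) and Mir542 (0.64) for Mir10b. Mir99a was nearest to Mirlet7c2 (0.68) and to its own neighbour Mirlet7c1 (0.68), copies that share reads, and then to Mir146b (0.68). Mir100 was nearest to Mir3553 (0.69), Mir98 (0.68) and Mir143 (0.63).

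Scarna3 was also the nearest feature of the 2 remaining genes. Mir99b was nearest to Scarna3 (r = 0.65), Mir204 (0.58) and Mir339 (0.58). Mir10a was nearest to Scarna3 (0.58), Mir155 (0.54) and Mirlet7a1 (0.51). All features share the 12 libraries and their scaling.

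The other microRNAs of the Hox clusters were nearly absent from these livers. Mir196a had 0 reads in all libraries, Mir196c had 2 reads in CAF+DEX library 1 and 0 elsewhere, and Mir615 had 0 to 2 reads. Mir196b had 9, 5 and 5.5 reads in CAF, 4, 7 and 10.5 in DEX, 6, 7 and 2 in CAF+DEX, and 8, 18 and 9 in Control. Every CAF+DEX library of Mir196b was below every Control library, at these low reads and where 14.7% of all features tested did not overlap. Its log2 fold change of -1.11 (SE 0.45, limma adjusted p = 0.404, unadjusted 0.0283) did not pass. Of the 6 Hox-cluster microRNAs listed, 4 were tested and 0 were called in any comparison with Control. Over all features 0.683% were called in CAF, 0% in DEX and 0% in CAF+DEX. The 4 had median log2 fold changes of 0.15 in CAF, 0.11 in DEX and 0.09 in CAF+DEX, against 0.00, 0.00 and -0.01 over all features. These 4 did not all go one way: Mir196b was also below Control in CAF, at -0.60, and in DEX, at -0.61, and the medians include Mir615 at 0 to 2 reads and Mir10b, whose sign in CAF and CAF+DEX turned without 1 library.

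Of 9 names written down for the miR-99/100, let-7 and miR-125 clusters, 6 were listed and all 6 were tested. In CAF, DEX and CAF+DEX against Control 0 of the 6 were called, against 0.683%, 0% and 0% of features. Their median log2 fold changes were -0.04 in CAF, -0.02 in DEX and -0.02 in CAF+DEX, against 0.00, 0.00 and -0.01 over all features. Mirlet7c1, the only one of the 6 outside the miR-99, miR-100 and miR-125 genes, was at 125557, 138955 and 143762 FPKM in CAF, at 154641, 159648 and 176635 in DEX, at 156879, 156331 and 130160 in CAF+DEX, and at 142102, 158564 and 153299 in Control. Its log2 fold changes were -0.15 in CAF, 0.11 in DEX and -0.04 in CAF+DEX. Each of these groups overlapped Control.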

How the data were processed

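The deposited table holds FPKM made by the authors for 444 features in 12 libraries. Per the labels' protocols, libraries came from a QIAseq kit with unique molecular indices; their collapsing is not described in the sources used here. The submitters' processing notes name cutadapt 3.7, STAR 2.7.11b, featureCounts of Subread 2.0.6 and rn7. FPKM times length in kilobases summed to 1000000 in each library. Reads were recovered as multiples of 0.01 read, and 50.5 to 58.3% of features above 0 had whole reads.

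The 293 features above 0 in at least 3 libraries were tested with limma-trend (limma 3.58.1, R 4.3.3) on log2(FPKM + 3.8), the pseudocount being the 10th percentile of all nonzero values. Fold changes on this scale understate those of low features. All 12 libraries entered 1 model, with Benjamini-Hochberg adjustment over the 293 features and a threshold of 0.05. Ratios were tested by exact permutation and correlations by permutation (scipy 1.17.1). The test was also run on simulated data, in which the changes set in CAF were larger than any member fold change of the main fit. Whether changes as small as those of the members would be called was not checked. All members were named, with the cluster partners and, for likeness, the 3 features of highest r. The members and lists were chosen with earlier results of these data known. Alternatives were other pseudocounts, filters, scalings, limma-voom, fewer samples, single libraries left out and a replicate block. Header numbers could be matched to groups but not to sample titles.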

Additional observations from a re-analysis of the deposited data

How the results depend on the processing

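No member was called under any alternative, and all 21 member fold changes against Control stayed short of the threshold. Of their 462 alternative values, 427 did not turn and 35 turned, 18 of these with 1 library left out. The cause was not tested. Many of the 427 could not turn: a changed filter, or leaving out libraries of groups not compared, does not alter a fold change. They also include Mir125b1 in DEX under quantile normalization, at 0.0. The 427 are therefore no measure of how stable the directions were. Log2 fold changes turned under quantile normalization as follows: in CAF Mir99b became 0.1128, Mir100 0.0647 and Mir99a 0.0361, in DEX Mir10b became -0.0234 and Mir100 0.0815, and in CAF+DEX Mir99b became 0.0991, Mir10a -0.0319 and Mir99a 0.003. Median-of-ratios scaling gave 0.0005 for Mir99b in CAF+DEX.

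Without CAF library 2 and CAF+DEX library 1, an alternative chosen after seeing the data, the values turned to -0.0359 for Mir125a, -0.1024 for Mir10b and -0.003 for Mir125b1 in CAF, and to -0.4466 for Mir10b, -0.0215 for Mir125b1 and -0.0066 for Mir10a in CAF+DEX. With single libraries left out, Mir10b ran from -0.10 to 0.66 in CAF, from 0.03 to 0.31 in DEX and from -0.45 to 0.63 in CAF+DEX, and Mir100 from -0.19 to 0.0266 in CAF, from -0.12 to 0.0492 in DEX and from -0.25 to 0.1124 in CAF+DEX. Likewise Mir99b ran from -0.0371 to 0.0078, Mir10a from -0.0579 to 0.0376 Mir125a from 0.04 to 0.19 and Mir125b1 from -0.0215 to 0.0169 in CAF+DEX, and Mir125a ran from -0.0359 to 0.13, Mir99a from -0.0604 to 0.0147 and Mir125b1 from -0.003 to 0.0929 in CAF.

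Deviations from group means correlated weakly between same-numbered libraries of different groups (11 pairs, r from -0.126 to 0.104, median -0.023). The 43 pairs with different numbers ran from -0.178 to 0.247. These few pairs cannot decide whether the numbers stand for a pairing, and the labels do not say. With the number as a replicate block 0 members were called, and Mir10a turned to -0.0016 in DEX and -0.0682 in CAF+DEX; 0 features were called in CAF and 1 in DEX against Control. Over all alternatives the features called ran from 0 to 10 for CAF against Control, where 2 were called, from 0 to 11 for the caffeine main effect, where 2 were, and from 0 to 4 for the F test, where 1 was. The exact p of the Mir10a to Mir10b ratio ran from 0.299 to 0.998 with single libraries left out. Precision is limited by 3 libraries per group, by read number for Mir100, and for Mir10b by a spread between libraries well above its counting error. That counting error takes each read as a separate molecule, which is not known here.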
